A study of Nothobranchius furzeri with 9 samples.

Results

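The comparison set livers of old African turquoise killifish (Nothobranchius furzeri) against livers of young ones, and so covers the net change over most of the life of the short-lived GRZ strain. Its members were all genes of the deposited table and the 6 liver libraries labelled old or young, of 9 in all. The old group held 3 libraries from fish of 23 to 24 weeks and the young group 3 from fish of 6 weeks. All were wild-type GRZ, and no treatment is named for any. The 3 remaining libraries, from adults of 12 weeks, entered the gene filter, the scaling and the estimate of the spread between libraries. Their values are given where they show when a gene moved. Liver RNA was made into SMART-Seq mRNA libraries and sequenced in bulk. Nothing in the labels says that the replicates of an age are separate fish, so the p-values measure only the spread between these samples.

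The liver makes most plasma proteins, stores and releases glucose and fat, makes bile acids from cholesterol and breaks down amino acids. In a growing fish its hepatocytes also divide, and it answers growth hormone by secreting insulin-like growth factor. Resident macrophages, the Kupffer cells of mammals, and blood cells contribute RNA to any liver sample. In bulk RNA, a change in the number of cells of a type and a change in the RNA of each cell cannot be told apart.

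The old libraries held 19600325, 19923417 and 23296247 counts and the young libraries 21674590, 33951438 and 22603384. Ribosomal RNA genes took 21.98, 15 and 7.07% of the counts in old replicates 1, 2 and 3. In young replicate 1 they took 29.65%, most of it mitochondrial (27.58%), against 4.52 and 4.74% in young replicates 2 and 3. Young replicate 1 therefore lay above all old libraries in that share, and the 2 others lay below all of them. Across genes, the log2 CPM (counts scaled to the library size) of young replicate 1 correlated with those of the 2 other young libraries at r = 0.753 and 0.808, and with those of the old libraries at 0.795 to 0.82. Young replicates 2 and 3 correlated with each other at 0.904. Genes are not independent replicates, so these values only describe the libraries. Because young replicate 1 stands apart, many results are given with and without it, and the others with all libraries only.

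Liver markers were abundant at both ages. The most abundant, apoa1b, an apolipoprotein of high-density lipoprotein, had 52561, 75501 and 105036 CPM in old livers and 53550, 82478 and 72376 CPM in young livers. All 17 hepatocyte markers were detected in every library, none passed the test (edgeR; 2 were higher at an unadjusted p under 0.05, 1 rose in DESeq2 and 0 in limma-voom), and their summed levels overlapped (127715 to 274855 CPM in old livers, 134404 to 205436 CPM in young livers). Markers of exocrine pancreas, a tissue that in many fish lies within or against the liver, summed to 1539 to 1886 CPM in old livers and 834 to 2569 CPM in young livers. Islet markers summed to 47.3, 10.3 and 192 CPM in old livers and 6.77, 6.27 and 3.89 CPM in young livers, led by insulin at 144.7 CPM in old replicate 3. The part of these cells in the results was not tested.

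With all libraries, 48 genes were higher and 30 were lower in old than in young livers, which is 0.344% and 0.215% of the 13971 genes tested (edgeR quasi-likelihood test, adjusted p under 0.05). Without young replicate 1, the same test found 627 higher and 694 lower, which is 4.3% and 4.76% of 14583 genes, and 9.06% (1321 genes) in either direction. All 78 genes found with all libraries (0.558% of those tested) were also found without that library, in the same direction. A further 1237 genes tested in both fits passed only without it. The sign of the fold change was the same in both fits for 87.5% of genes, and the median log2 fold change of all genes tested was -0.09 with and -0.02 without young replicate 1. Library size scaling alone moved that median to -0.36 and the counts to 27 higher and 28 lower. On the 13971 genes of the fit of all libraries DESeq2 found 451 higher and 605 lower, and limma-voom 63 and 20. At an unadjusted p under 0.05, the edgeR fit of all libraries had 875 of them higher and 1233 lower. Counts of list members at that p are to be read beside these.

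**Figure D1:**
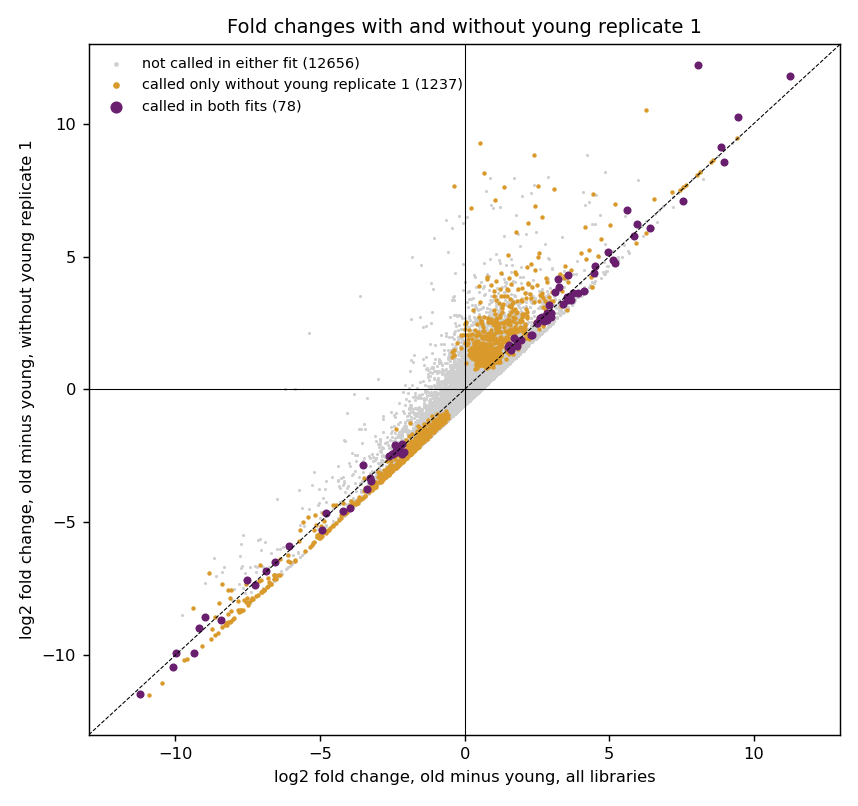
Log2 fold change of each gene, old over young, with all libraries (horizontal axis) and without young replicate 1 (vertical axis), for the 13971 genes tested in both fits. The 78 genes that passed in both fits have the same sign on both axes, and the 1237 that passed only without young replicate 1 are marked apart from the remaining genes.

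Among the 627 genes higher without young replicate 1, that library still lay on the young side of every old library for 295 (47.0%). It lay beyond the 2 other young libraries in the direction of old for 541 of them (86.3%), against 62.1% of all genes with a positive fold change. Of the 694 lower genes, 295 (42.5%) had young replicate 1 on the young side of every old library, and 606 (87.3%, against 64.1% of all genes with a negative fold change) had it beyond the 2 other young libraries towards old. The genes were chosen for old values far from those of young replicates 2 and 3, so these shares are in part fixed by the choice and are given as a description. With all libraries, 1075 genes (7.69%) had every old library above every young library and 1104 (7.9%) had every old library below.

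Leaving out most other libraries lowered the counts. Without old replicate 2 there were 2 higher genes and 0 lower (750 and 1170 at an unadjusted p under 0.05 in edgeR), and without young replicate 3 there were 9 and 6. Without old replicate 1 there were 22 and 12, without young replicate 2 there were 27 and 17, and with each adult library left out in turn 25 to 30 and 9 to 13. Without old replicate 3 there were 86 and 107. Old replicate 3 had the lowest value of the old libraries, the nearest to young, in 36 of the 48 higher genes (75.0%, against 46.8% of all genes with a positive fold change). HTRA1B and an aquaporin-9-like gene passed in all 21 other settings. Of the genes named below, fgf19 and a coagulation factor XI-like gene passed in 20 of 21, and bhmt, SLC13A5, lck, IGF1, fah, pfkfb4b and ckba in 17 to 19. Fewer settings kept ucp1 (12), agxta and TCN2L (11 each), CBS, aqp7, tap2a and PSMB10 (10 each), RBP1A and calr (9 each) and uhrf1 (8), and of 20 settings INHBC and smc2 passed in 10 and MCM10 in 9.

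The 48 genes that rose differed by 1.49 to 11.26 on the log2 scale, with a median of 3.25, and 20 of them carry no symbol. HTRA1B (chromosome 12, 10824105 to 10865694, coordinates as the deposited table gives them), a secreted serine protease that cleaves extracellular matrix proteins, had 378.2, 502.1 and 331.4 CPM in old livers and 1.20, 1.04 and 0.351 CPM in young livers. All old libraries lay far above all young ones, and the adult libraries lay between at 43.4, 40.2 and 126 CPM. It differed by 8.87 ± 0.73 (SE) on the log2 scale (edgeR adjusted p = 0.00367, and 1.34e-49 to 0.022 over the other settings), and by 9.12 without young replicate 1. Its paralog htra1a had no count in any old or young library.

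Fibroblast growth factor 19 (fgf19, on a scaffold outside the numbered chromosomes) is a hormone that in mammals comes from the ileum and lowers bile acid synthesis in the liver. It had 57.1, 53.1 and 54.7 CPM in old livers and 0, 0.243 and 0 CPM in young livers. The old libraries were close to each other, and the adults had 5.90, 6.11 and 24.4 CPM. It rose by 8.98 ± 1.09 on the log2 scale with all libraries and by 8.57 without young replicate 1 (edgeR, adjusted p = 0.0125 and 0.00771). It was the only member of the bile acid list, of 17 tested, to pass with all libraries. The receptor through which fgf19 acts in liver, fgfr4, had 14.03, 15.5 and 45.0 CPM in old livers and 14.7, 3.40 and 4.21 CPM in young livers, which overlapped (log2 fold change 1.75 ± 0.63, edgeR adjusted p = 0.228, and 0.0239 without young replicate 1). Cyp7a1 is the rate-limiting enzyme of bile acid synthesis and was looked up after the values were seen. It had 8.64, 45.3 and 10.7 CPM in old livers and 4.64, 7.82 and 88.5 CPM in young livers (cyp7a1, log2 fold change -0.64, edgeR adjusted p = 0.836). Its ages overlapped.

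**Figure D2:**
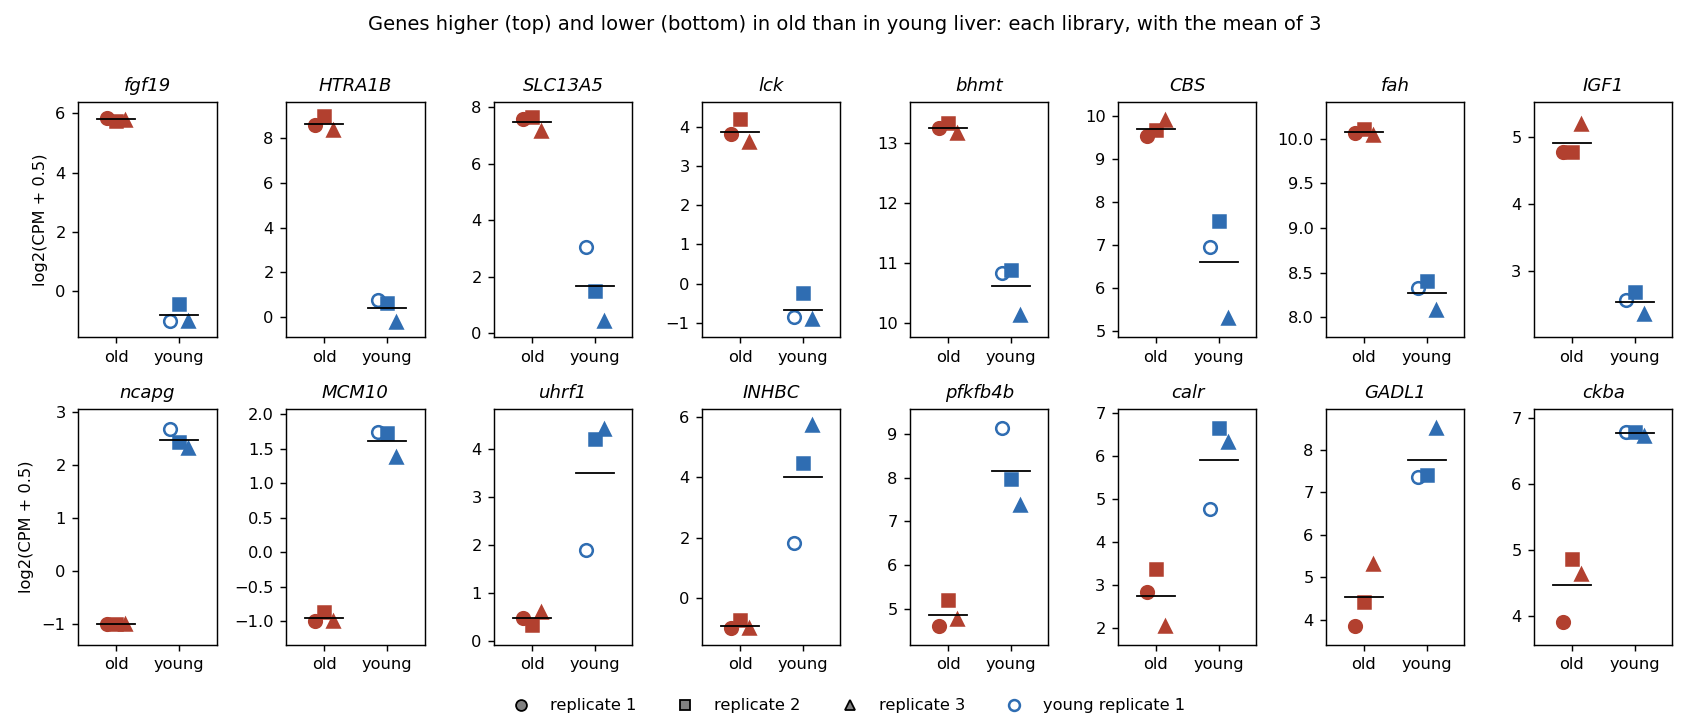
Values of 16 genes that passed the test, 8 higher and 8 lower in old livers, as log2(CPM + 0.5) in each library, with old replicates at the left and young replicates at the right of each panel, bars at the mean of 3 and young replicate 1 drawn open. In each panel all 3 old libraries lie on the same side of all 3 young libraries.

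Several transporters and channels rose. The aquaporin-9-like gene, of a family of channels that pass water and glycerol, had 28.1, 29.2 and 39.4 CPM in old livers and 0.491, 0.927 and 0.175 CPM in young livers (log2 fold change 5.87 ± 0.57, edgeR adjusted p = 0.00905, and 5.94e-26 to 0.0488 over the other settings). Its adult libraries already had 23.4, 27.7 and 35.3 CPM, close to the old libraries. The glycerol channel gene aqp7 rose less, with 206.8, 207.4 and 157.3 CPM in old livers and 53.9, 71.5 and 64.4 CPM in young livers (log2 fold change 1.59 ± 0.26, edgeR adjusted p = 0.032). SLC13A5, which carries citrate into hepatocytes, had 194, 200 and 141.6 CPM in old livers and 7.86, 2.34 and 0.842 CPM in young livers. Young replicate 1 was the highest of its group, and the log2 fold change was 5.62 ± 0.77 with that library and 6.77 without it (edgeR, adjusted p = 0.0137 and 0.00596). TCN2L, which resembles the vitamin B12 carrier transcobalamin, and RBP1A, a retinol-binding protein, rose by 2.76 and 1.70 on the log2 scale (edgeR, adjusted p = 0.0451 and 0.0465).

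The growth hormone target IGF1 (chromosome 1, 88895032 to 88917344) had 26.9, 26.9 and 36.0 CPM in old livers and 5.40, 5.94 and 4.63 CPM in young livers. Neither group overlapped the other, the adults stood between at 15.3, 18.1 and 18.5 CPM, and the log2 fold change was 2.49 ± 0.30 with and 2.49 without young replicate 1 (edgeR, adjusted p = 0.0125 and 0.00742). IGF1 was the only one of 56 tested members of the growth hormone, IGF and insulin list to pass with all libraries, and 6 higher and 2 lower of 57 passed without young replicate 1, where 4.3% and 4.76% of all genes did. The median of that list was 0.14 with all libraries and -0.08 with library size scaling, where the median of all genes was -0.09 and -0.36. SPRY4, an inhibitor of receptor tyrosine kinase signalling that growth factors induce, had 22.8, 16.2 and 33.7 CPM in old livers and 4.15, 3.09 and 4.14 CPM in young livers (log2 fold change 2.68 ± 0.42, edgeR adjusted p = 0.0269). The uncoupling protein gene ucp1, a carrier of the inner mitochondrial membrane known for heat production in mammalian brown fat, had 2007, 1779 and 1175 CPM in old livers and 348.3, 110.1 and 73.2 CPM in young livers. All old libraries were above young replicate 1, the highest young library, and the log2 fold change was 3.22 ± 0.58 with it and 4.16 without it (edgeR, adjusted p = 0.0452 and 0.00603).

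A few enzymes of amino acid breakdown rose in old liver. Of 82 tested members of the amino acid and nitrogen list, 4 rose and none fell with all libraries, where 0.344% of all genes rose and 0.215% fell. Without young replicate 1, 15 of 84 rose and 2 fell, where 4.3% of all genes rose and 4.76% fell. Every old library was above every young library for 23 members, where 7.69% of all genes were so placed, and below for 3. The list median was 0.27, against -0.09 for all genes, and -0.06 with library size scaling, against -0.36 for all genes. Of the 4 that rose, bhmt passes a methyl group from betaine to homocysteine and had 9717, 10334 and 9203 CPM in old livers and 1829, 1882 and 1114 CPM in young livers. It rose by 2.60 ± 0.29 on the log2 scale (edgeR adjusted p = 0.0106), and the adult libraries lay between at 5542, 5130 and 6473 CPM.

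The second enzyme that removes homocysteine, cystathionine beta-synthase (CBS), had 735.1, 818.2 and 953.6 CPM in old livers and 121.9, 187.8 and 38.5 CPM in young livers (log2 fold change 2.85 ± 0.50, edgeR adjusted p = 0.0442). Adults had 911.9, 705.8 and 1003 CPM of CBS, as high as old livers. Fumarylacetoacetate hydrolase (fah), the last enzyme of tyrosine breakdown, had 1074, 1108 and 1052 CPM in old livers and 322.2, 338.2 and 270.5 CPM in young livers. Its replicates were close to each other at both ages (log2 fold change 1.80 ± 0.25, edgeR adjusted p = 0.0137). The aminotransferase agxta, which in mammals clears glyoxylate, had 4277, 4427 and 4109 CPM in old livers and 1414, 1530 and 1341 CPM in young livers (log2 fold change 1.58 ± 0.24, edgeR adjusted p = 0.0214). A gene described as proline dehydrogenase 1a, the first enzyme of proline breakdown, carries no symbol and so was not in the list. It had 89.5, 51.4 and 16.7 CPM in old livers and 0, 0.375 and 0.386 CPM in young livers (log2 fold change 7.54 ± 0.96, edgeR adjusted p = 0.0125), with old replicate 3 the lowest of the old libraries.

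The genes that fell most had no count or almost none in old liver. A gene resembling serine/threonine kinase 35 (si:ch211-63o20.7, chromosome 4, 74068729 to 74082395) had 0, 0 and 0 CPM in old livers and 8.68, 16.9 and 10.8 CPM in young livers. It was at least 239-fold lower in old livers, taking 3 counts over the 3 old libraries as the limit, and its adults had 2.76, 4.45 and 1.20 CPM (edgeR, adjusted p = 0.0125). The transporter-like gene MFSD9 was at least 108-fold lower by the same limit. INHBC, described as inhibin beta B chain-like and so a subunit of the inhibin and activin hormones, had 0, 0.102 and 0 CPM in old livers and 3.06, 21.9 and 52.3 CPM in young livers. Its level was 813.5-fold higher in young than in old livers (95% exact interval of counting error 225 to 6721; edgeR adjusted p = 0.0375), on 2 counts in all old libraries. Bounds and intervals of this kind cover counting error only.

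Among well-expressed genes that fell were enzymes of central metabolism. The enzyme of pfkfb4b sets the level of the glycolytic activator fructose-2,6-bisphosphate, and the gene had 23.8, 36.1 and 26.6 CPM in old livers and 567.3, 248.9 and 166.2 CPM in young livers. Young replicate 1 was the highest, and the log2 fold change was -3.51 ± 0.47 with it and -2.86 without it (edgeR, adjusted p = 0.0137 and 0.00603). A gene described as the b form of oxoglutarate dehydrogenase, of the citric acid cycle, had 57.0, 50.4 and 44.5 CPM in old livers and 256.4, 191.6 and 228.4 CPM in young livers (log2 fold change -2.15 ± 0.27, edgeR adjusted p = 0.0125). Adults had 310.6, 368 and 424 CPM of it, above every young library. Creatine kinase B (ckba), which buffers ATP, had 14.5, 28.5 and 24.2 CPM in old livers and 109.7, 109.5 and 105.5 CPM in young livers (log2 fold change -2.27 ± 0.31, edgeR adjusted p = 0.0137). It overlaps TRMT61A and mark3a on the opposite strand, which had 13.5 and 16.7 CPM in old livers. No source used here says that counting used strand, so reads of such pairs cannot be told apart. The amino acid decarboxylase gene GADL1 and the organic cation transporter gene slc22a2 fell by 3.24 and 2.39 on the log2 scale (edgeR, adjusted p = 0.0247 and 0.0139).

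For the 48 risen and the 30 fallen genes, the adult values were set beside those of the other ages. Adults had far more exocrine pancreas RNA, with marker sums of 80317, 7257 and 25274 CPM, and its part in the adult values was not tested. The adult mean lay between the young and old means for 45 of the 48 and past the old mean for 3, and the median gene had made 59.9% of its log2 change by 12 weeks. For the 30 fallen genes it lay between for 23 and above the young mean for 7, and the median share made by 12 weeks was 21.1%. The genes were chosen for old values far from young ones, so an adult mean between them is in part fixed by the choice. These counts and shares are given as a description. The shares use log2(CPM + 0.5), and in the 6 fallen genes without a count in old livers the 0.5 sets the end point. It also largely sets it in other fallen genes with old means below 0.5 CPM, such as INHBC (0.0338 CPM) and MCM10 (0.0169 CPM). Whether the 2 shares differ was not tested.

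Genes of cell division were lower in old liver almost throughout their lists, although few passed singly. In the DNA replication list, 47 of 48 tested genes had a negative fold change, the median was -2.10 against -0.09 for all genes, and 2 fell with all libraries (0.215% of all genes did). In the mitosis list, 48 of 50 were negative, the median was -2.27 and 3 fell. Every old library was below every young library for 20 replication genes and 30 mitosis genes, where 7.9% of all genes were so placed. In DESeq2, 20 replication and 15 mitosis genes fell, where 605 of all 13971 genes did. In limma-voom, 1 replication and 3 mitosis genes fell, where 20 of all genes did. Without young replicate 1, 11 replication genes fell and 1 rose, 8 of 52 mitosis genes fell (4.76% of all genes did), and the medians were -2.33 and -1.96. The mitosis median was -5.32 without old replicate 3, the old library with the most of these transcripts. Of 56 matched mitosis genes, 35, 31 and 13 had no count in old replicates 1, 2 and 3, and 3, 2 and 4 in the young libraries. Fold changes of genes without a count at 1 age are not measured sizes. In the other fits that left out a library the mitosis median was -2.41 to -1.84 and the replication median was -2.33 to -1.78.

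**Figure D3:**
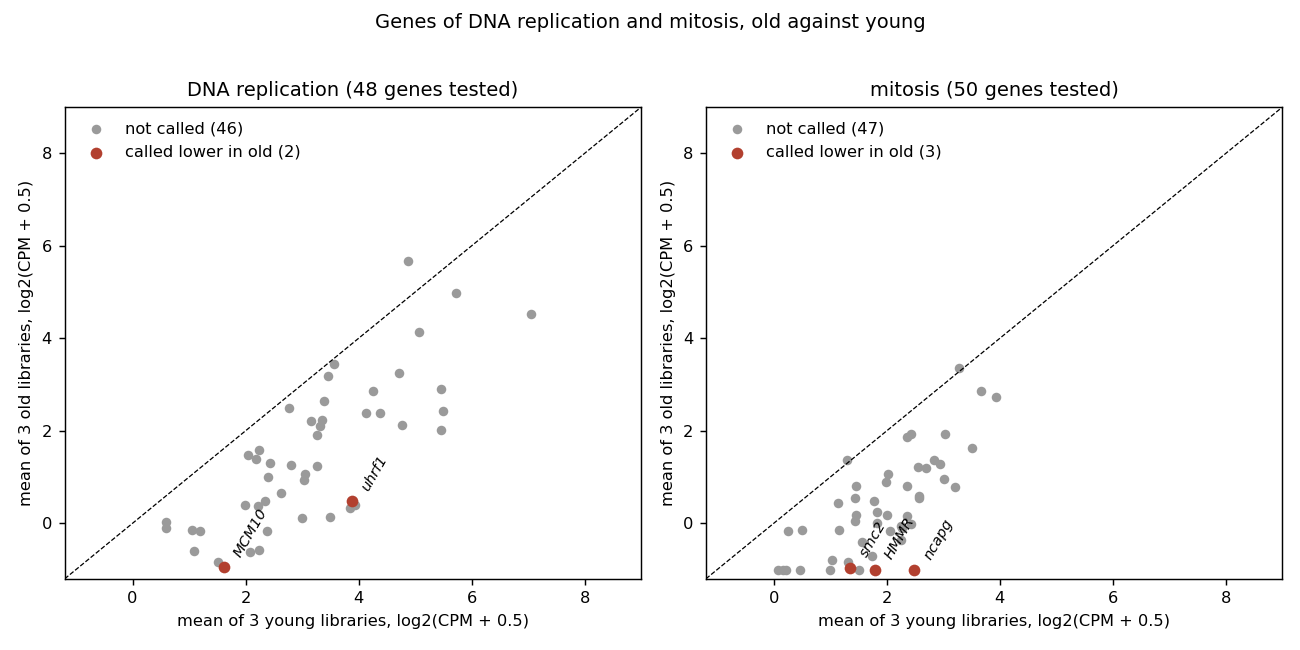
Mean level in old (vertical axis) against young livers (horizontal axis), as log2(CPM + 0.5), for 48 DNA replication and 50 mitosis genes, with the line of equal level. All but 3 genes lie below the line.

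The condensin subunit gene ncapg, which compacts chromosomes for division, had 0, 0 and 0 CPM in old livers and 5.90, 4.92 and 4.49 CPM in young livers, at least 100.5-fold lower in old (edgeR, adjusted p = 0.0125). Adults had 2.39, 2.02 and 2.85 CPM. The spindle protein gene HMMR was at least 58.4-fold lower by the same limit, with 3.93, 2.16 and 2.81 CPM in young livers. MCM10, needed to start DNA replication, had 0, 0.0507 and 0 CPM in old livers and 2.84, 2.80 and 2.10 CPM in young livers (edgeR, adjusted p = 0.0286). Uhrf1, which recognises newly copied DNA so that its methylation is kept, had 0.898, 0.761 and 1.02 CPM in old livers and 3.22, 18.2 and 21.2 CPM in young livers. Young replicate 1 was the nearest young library to old (uhrf1, log2 fold change -3.98 ± 0.72 with it and -4.46 without it, edgeR adjusted p = 0.0475 and 0.00617). The condensin core gene smc2, the augmin subunit gene HAUS5 and the cell cycle transcription factor gene E2F3 also fell and had 1 or 2 counts in all old libraries together.

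Of 65 DNA repair genes tested, 47 had a negative and 18 a positive fold change, the median was -0.57 and none passed with all libraries (edgeR; 12 lower and 2 higher at an unadjusted p under 0.05, 5 fell in DESeq2 and 0 in limma-voom). Of all 13971 genes, 605 fell in DESeq2, and 1233 were lower and 875 higher at that unadjusted p in edgeR. Without young replicate 1, 6 of 66 repair genes fell and 1 rose, where 4.76% and 4.3% of all genes did. The base excision enzyme gene apex1 had 6.12, 10.7 and 6.31 CPM in old livers and 20.4, 37.4 and 27.2 CPM in young livers (log2 fold change -1.88 ± 0.36, edgeR adjusted p = 0.0563, and 0.0124 without young replicate 1). DCLRE1A, which acts on DNA cross-links and was not in the list, fell by 4.93 on the log2 scale (edgeR, adjusted p = 0.0157). It overlaps NHLRC2 on the opposite strand, which had 1.30 CPM in old livers.

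Markers of macrophages were higher in old liver. Of 18 tested, 16 had a positive fold change, the median was 1.44 and 2 rose (0.344% of all genes did). In 10 of them every old library was above every young library, as in 7.69% of all genes. Without young replicate 1, 16 of 19 markers were positive, the median was 1.07 and 4 rose (4.3% of all genes did). Their summed level was 1704, 1789 and 825 CPM in old livers and 351, 399 and 464 CPM in young livers. Without the 3 markers that carry the symbol MFAP4 the sums were 537, 815.6 and 541.5 CPM in old livers and 314, 367.3 and 425.1 CPM in young livers, which still did not overlap. The 2 members that rose with all libraries were a pair of MFAP4 genes on chromosome 12. MFAP4 is a matrix protein that marks macrophages in zebrafish, and the pair could share reads. The first MFAP4 gene had 678.9, 600.5 and 186.5 CPM in old livers and 25.1, 20.8 and 18.3 CPM in young livers (log2 fold change 4.51 ± 0.59, edgeR adjusted p = 0.0133). The second had 488.5, 372.7 and 97.04 CPM in old livers and 12.1, 10.7 and 20.1 CPM in young livers (log2 fold change 4.48 ± 0.76, edgeR adjusted p = 0.0379). In both, old replicate 3 was the lowest old library and lay within the range of the adults.

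Other macrophage markers did not pass with all libraries. The colony-stimulating factor receptor gene csf1ra had 24.8, 10.5 and 5.29 CPM in old livers and 0, 0.751 and 1.09 CPM in young livers (log2 fold change 4.40 ± 1.03, edgeR adjusted p = 0.0922, and 0.0239 without young replicate 1). C1QA, a chain of the complement recognition protein C1q, had 20.8, 14.97 and 4.82 CPM in old livers and 0.819, 0.442 and 2.10 CPM in young livers (log2 fold change 3.59 ± 0.72, edgeR adjusted p = 0.0633, and 0.0404 without young replicate 1). A gene described as the C1q B chain, without a symbol and so outside the list, passed, with 42.3, 32.1 and 15.4 CPM in old livers and 0.983, 1.41 and 3.44 CPM in young livers (log2 fold change 3.93 ± 0.63, edgeR adjusted p = 0.0286). A C-type lectin gene outside the list, cldc1, had the largest positive fold change of all that passed. It had 2573, 2074 and 194.9 CPM in old livers and 1.15, 0.309 and 0.596 CPM in young livers (log2 fold change 11.26 ± 1.61, edgeR adjusted p = 0.0161). The adults had 208.5, 11.3 and 285.3 CPM, and old replicate 3 lay within that range. The gene passed in 16 of 21 other settings, but not in limma-voom without or with quality weights (adjusted p = 0.103 and 0.131).

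Antigen presentation genes were mostly higher. In the interferon and antigen presentation list, 19 of 25 tested genes had a positive fold change, the median was 0.93, and 2 rose with all libraries (0.344% of all genes did) and 4 without young replicate 1 (4.3% of all genes did). The median was 0.32 without old replicate 2, the old library with the highest level of this list. The list summed to 441, 746.6 and 379.9 CPM in old livers and 439.6, 339.3 and 314.3 CPM in young livers, which overlapped. The peptide transporter gene tap2a had 10.6, 19.5 and 21.5 CPM in old livers and 2.29, 4.64 and 3.51 CPM in young livers (log2 fold change 2.30 ± 0.41, edgeR adjusted p = 0.0452). PSMB10, described as a proteasome subunit beta type-7-like gene, had 17.7, 28.3 and 19.4 CPM in old livers and 4.86, 5.85 and 6.14 CPM in young livers (log2 fold change 1.95 ± 0.33, edgeR adjusted p = 0.0342). Adults had 12.1 to 16.6 CPM of tap2a and 11.8 to 14.8 CPM of PSMB10, above every young library.

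T and NK cell markers were scarce. Of 13 matched, 8 to 11 had no count in a given old or young library and 2 were tested. The T-cell receptor kinase gene lck rose, with 13.6, 17.7 and 11.6 CPM in old livers and 0.0546, 0.353 and 0.0351 CPM in young livers (log2 fold change 6.40 ± 0.80, edgeR adjusted p = 0.0125). The lck gene overlaps tmem54a on the opposite strand. The second, tcf7, a T-cell transcription factor, had 1.18, 3.04 and 1.95 CPM in old livers and 2.40, 0.287 and 3.26 CPM in young livers, which overlapped. Of 12 neutrophil markers tested, 9 had a positive fold change and none passed in edgeR, where 3 were higher at an unadjusted p under 0.05. Of all 13971 genes, 875 were higher at that p. In DESeq2 3 of the markers rose, where 451 of all genes did, and in limma-voom 1, where 63 did. LECT2, a chemotactic protein that hepatocytes also secrete, made up nearly all of that list, with 14703, 9823 and 4074 CPM in old livers and 2007, 782.6 and 1203 CPM in young livers (log2 fold change 2.84 ± 0.56, edgeR adjusted p = 0.0588, and 0.0197 without young replicate 1).

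No listed gene of complement or coagulation, proteins that hepatocytes secrete, passed with all libraries (edgeR; 7 complement genes were higher and 1 lower, and 4 coagulation genes higher and 0 lower, at an unadjusted p under 0.05). In DESeq2, 6 complement genes rose and 1 fell and 3 coagulation genes rose and 0 fell, and in limma-voom none passed. Of all 13971 genes, 451 rose and 605 fell in DESeq2, and 875 were higher and 1233 lower at that unadjusted p in edgeR. Without young replicate 1, 3 complement genes rose and 1 fell, and 2 coagulation genes rose and 0 fell, where 4.3% of all genes rose and 4.76% fell. Of 18 complement genes tested, 13 were positive and 5 negative with a median of 0.69. In 8 of them every old library was above every young library and in 2 below, as in 7.69% and 7.9% of all genes. The membrane attack gene C7 had 1249, 1194 and 1001 CPM in old livers and 646, 298.5 and 245.2 CPM in young livers (log2 fold change 1.53 ± 0.43, edgeR adjusted p = 0.139, and 0.0171 without young replicate 1). Of 23 coagulation genes, 20 were positive and 3 negative with a median of 0.41. A gene resembling coagulation factor XI, without a symbol and so outside the list, rose, with 167.6, 162 and 181.5 CPM in old livers and 3.06, 4.79 and 6.80 CPM in young livers (log2 fold change 5.12 ± 0.55, edgeR adjusted p = 0.0106). The inflammatory transcription factor gene CEBPD had 143.3, 140.1 and 69.4 CPM in old livers and 22.1, 14.8 and 9.86 CPM in young livers, without overlap (log2 fold change 2.92 ± 0.54, edgeR adjusted p = 0.0516, and 0.0192 without young replicate 1).

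Cholesterol synthesis genes were lower in old liver. Of 35 tested, 30 had a negative fold change, the median was -1.77 and 19 had every old library below every young library (7.9% of all genes did), but none passed with all libraries (edgeR; 22 lower and 1 higher at an unadjusted p under 0.05). At that unadjusted p, 1233 of all 13971 genes were lower and 875 higher. In DESeq2 21 of the cholesterol genes fell, where 605 of all genes did, and in limma-voom 0. Without young replicate 1, 18 fell and none rose, where 4.76% of all genes fell, and the median was -1.97. NSDHL, a late enzyme of the pathway, had 5.78, 4.52 and 2.97 CPM in old livers and 23.8, 329.9 and 139.3 CPM in young livers (log2 fold change -5.22 ± 0.99, edgeR adjusted p = 0.0563, and 0.00771 without young replicate 1). Squalene epoxidase (sqlea) had 10.2, 4.87 and 6.12 CPM in old livers and 15.7, 257 and 314.6 CPM in young livers (log2 fold change -4.80 ± 0.99, edgeR adjusted p = 0.0698, and 0.00617 without young replicate 1). In both genes young replicate 1 was the lowest young library yet above every old library. In phosphomevalonate kinase (PMVK) it was instead the highest, with 39.4, 22.6 and 53.1 CPM in old livers and 189.1, 111.3 and 174.7 CPM in young livers (log2 fold change -2.04 ± 0.43, edgeR adjusted p = 0.0707, and 0.0336 without it). PMVK overlaps DECR1 on the opposite strand, which had mean levels of 23.78 CPM in old and 37.05 CPM in young livers.

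Fatty acid enzymes gave smaller values. Of 37 fatty acid and triglyceride synthesis genes tested, 24 were negative with a median of -0.37. None passed with all libraries in edgeR (10 lower and 3 higher at an unadjusted p under 0.05) or in limma-voom. At that p, 1233 of all 13971 genes were lower and 875 higher. In DESeq2 7 of the synthesis genes fell and 2 rose, where 605 and 451 of all genes did. Without young replicate 1, 7 of 38 fell (4.76% of all genes did) and none rose. Stearoyl-CoA desaturase b (scdb) had 68.0, 77.4 and 127.3 CPM in old livers and 271.1, 362.7 and 555.2 CPM in young livers, without overlap (log2 fold change -2.12 ± 0.45, edgeR adjusted p = 0.071, and 0.0197 without young replicate 1). Of 44 fatty acid oxidation genes, 32 were negative with a median of -0.51. None passed with all libraries in edgeR (12 lower and 2 higher at an unadjusted p under 0.05) or in limma-voom. In DESeq2 4 of the oxidation genes fell and 1 rose. Without young replicate 1, 8 fell (4.76% of all genes did) and none rose. In both fatty acid lists the centred median log2 level of young replicate 1 lay within the range of the old libraries. Glucokinase (gck), which traps glucose in liver cells, had 0.505, 1.52 and 1.02 CPM in old livers and 25.6, 3646 and 651.9 CPM in young livers. Its young libraries spread widely, and the log2 fold change of -10.46 ± 2.14 did not pass (edgeR, adjusted p = 0.0684, and 0.0126 without young replicate 1). Fructose-1,6-bisphosphatase (fbp1b), an enzyme of glucose production, had 3412, 3718 and 3636 CPM in old livers and 1343, 1736 and 864.9 CPM in young livers, without overlap (log2 fold change 1.45 ± 0.29, edgeR adjusted p = 0.0639, and 0.0253 without young replicate 1).

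Most genes of the chaperone lists had a negative fold change. In the ER folding and unfolded protein response list, 47 of 56 tested genes had a negative fold change and the median was -0.96. Only the calreticulin-like gene calr fell with all libraries, and 21 members fell and none rose without young replicate 1 (4.76% of all genes fell). Calr, a calcium-binding chaperone of new glycoproteins, had 6.68, 9.84 and 3.62 CPM in old livers and 26.6, 100.7 and 79.9 CPM in young livers (log2 fold change -3.36 ± 0.58, edgeR adjusted p = 0.0385). HYOU1, an ER chaperone of the HSP70 family, had 24.4, 27.3 and 42.4 CPM in old livers and 59.06, 421 and 222.5 CPM in young livers (log2 fold change -2.90 ± 0.61, edgeR adjusted p = 0.0707, and 0.00617 without young replicate 1). Of 43 cytosolic heat shock genes, 34 were negative with a median of -0.79. The summed level of the list was instead higher in old livers without overlap, at 8505, 8172 and 6814 CPM against 6189, 5869 and 5689 CPM in young livers. The centred median log2 level of young replicate 1 lay within the old range. Every old library was below every young library for 4 of these genes and above for 2, where 7.9% and 7.69% of all genes were so placed. None passed in edgeR (12 lower and 2 higher at an unadjusted p under 0.05) or in limma-voom. At that p, 1233 of all 13971 genes were lower and 875 higher. In DESeq2 6 of the heat shock genes fell and 1 rose, where 605 and 451 of all genes did. Without young replicate 1, 15 of 44 fell and 2 rose, where 4.76% of all genes fell and 4.3% rose. The abundant chaperone gene hsp90ab1 went against most genes of its list, with 4760, 4588 and 3637 CPM in old livers and 2950, 2153 and 2391 CPM in young livers (log2 fold change 0.79 ± 0.25, edgeR adjusted p = 0.173, and 0.0325 without young replicate 1). Of 45 proteasome genes, 37 were negative with a median of -0.53. Their summed level was 1323, 1412 and 1337 CPM in old livers and 1200, 2015 and 1820 CPM in young livers, with young replicate 1 below every old library. Every old library was below every young library for 4 of these genes and above for 1, where 7.9% and 7.69% of all genes were so placed. None passed in edgeR (7 lower and 1 higher at an unadjusted p under 0.05, where 1233 and 875 of all genes were). None passed in limma-voom, and in DESeq2 3 fell and 1 rose, where 605 and 451 of all genes did. Without young replicate 1, 11 fell and 1 rose, where 4.76% of all genes fell and 4.3% rose.

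**Figure D4:**
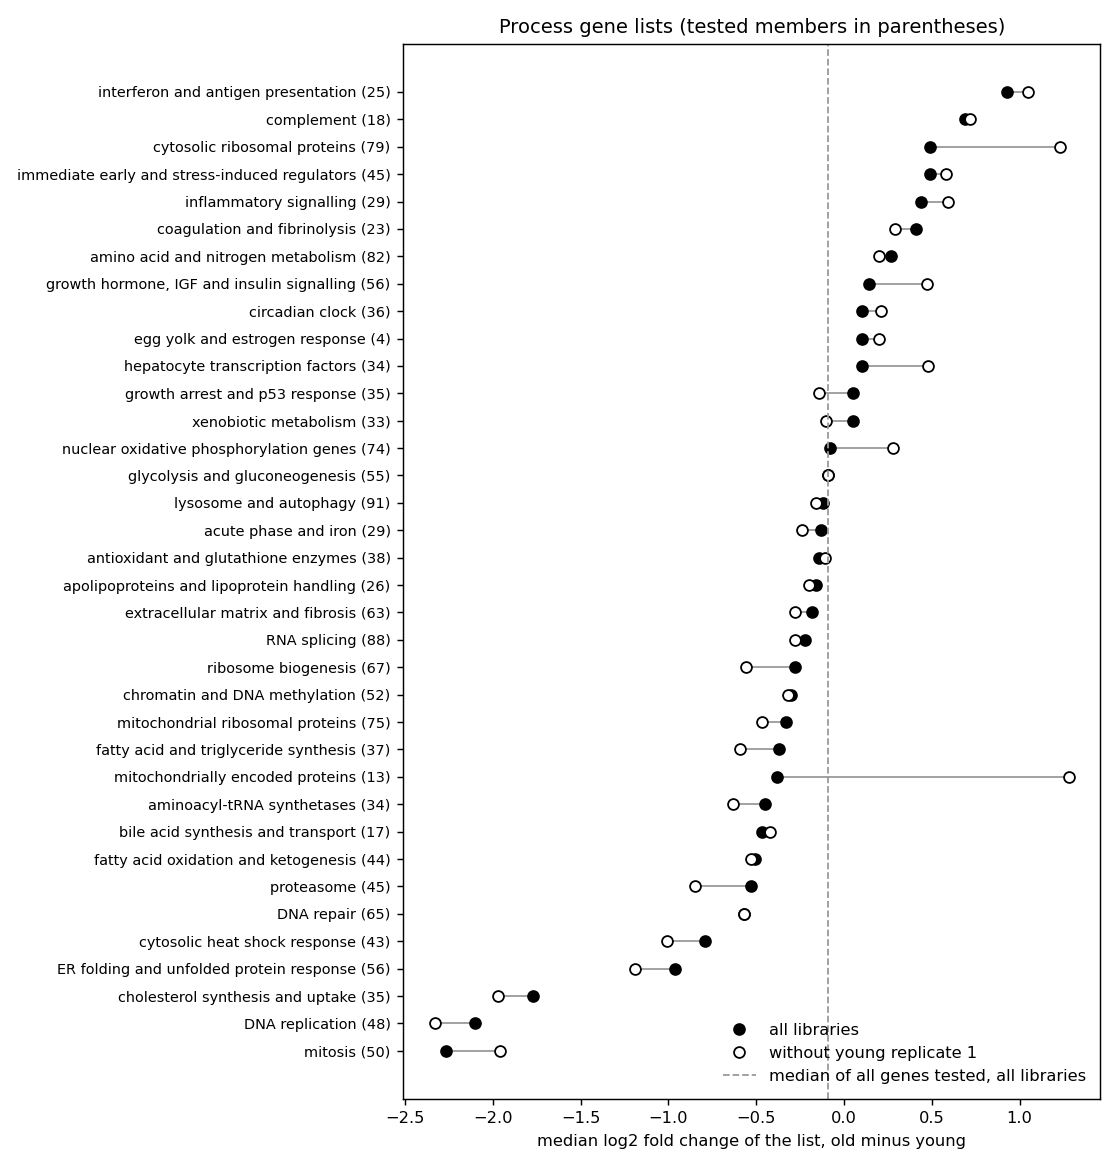
Median log2 fold change, old over young, of 36 gene lists with all libraries (filled) and without young replicate 1 (open), with the median of all genes tested (-0.09) as a dashed line. DNA replication, mitosis and cholesterol synthesis lie lowest with both sets of libraries, while the ribosomal protein and mitochondrially encoded lists lie at 0.49 and -0.38 with and at 1.23 and 1.28 without young replicate 1. Medians between 0 and 0.27 such as that of amino acid metabolism turn negative with library size scaling, which moves the median of all genes to -0.36.

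Ribosomal proteins and mitochondrially encoded genes depended on young replicate 1. Of 79 cytosolic ribosomal protein genes, 77 had a positive fold change, the median was 0.49 and none passed with all libraries (edgeR; 3 higher at an unadjusted p under 0.05, and 0 passed in DESeq2 or limma-voom), whereas 53 rose and none fell without young replicate 1 (4.3% of all genes rose), with a median of 1.23. Of all 13971 genes, 875 were higher at that unadjusted p with all libraries. The ribosomal protein genes summed to 51929, 39185 and 29812 CPM in old livers and 48007, 14580 and 18999 CPM in young livers. Young replicate 1 thus lay within the old range. RPS6, of the small ribosomal subunit, had 1036, 899.3 and 777.8 CPM in old livers and 749.2, 368.3 and 438.7 CPM in young livers (log2 fold change 0.80 ± 0.31, edgeR adjusted p = 0.257, and 0.0199 without young replicate 1). Of the 13 proteins encoded in mitochondrial DNA, 11 had a negative fold change with a median of -0.38. Without young replicate 1 all 13 were positive, the median was 1.28 and 8 rose (4.3% of all genes did). Their summed level was 34010, 29823 and 18970 CPM in old livers and 85364, 10102 and 11843 CPM in young livers. When the share of ribosomal RNA was added to the model their median was 0.13. In that model the median of the ribosomal protein genes was 0.59 and that of nuclear oxidative phosphorylation genes was -0.05. Nuclear genes of oxidative phosphorylation had a median of -0.08 with and 0.28 without young replicate 1, and 2 of 74 rose without it, where 4.3% of all genes rose. All old libraries and young replicate 1 lay above young replicates 2 and 3 in the ribosomal RNA share and in the summed level of each of these lists, and the part of that share in these results was not tested.

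**Figure D5:**
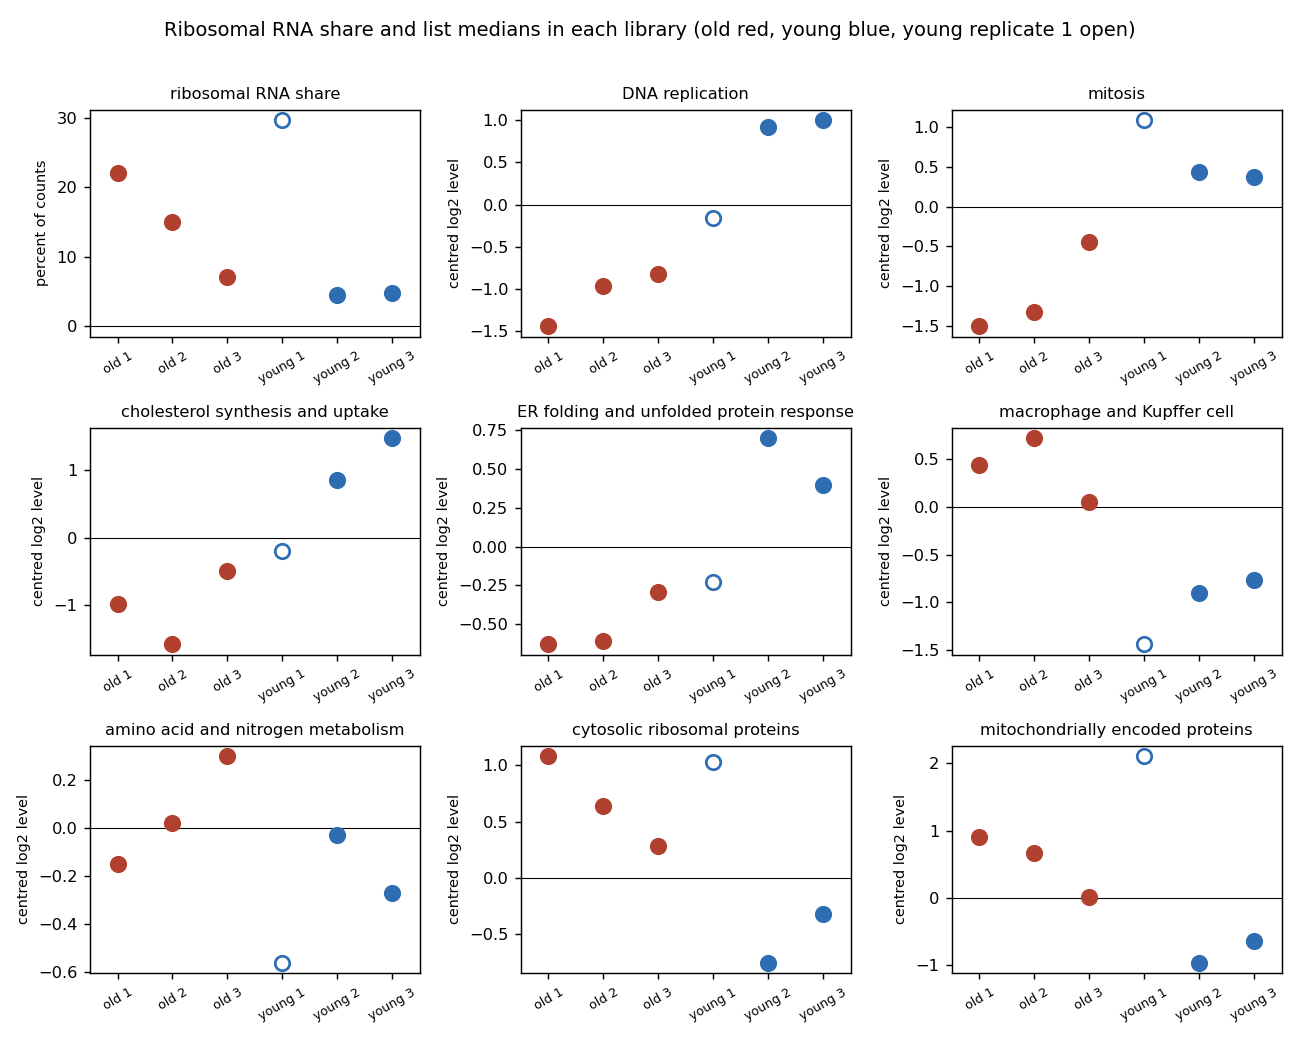
Ribosomal RNA share (percent of counts) and the centred median log2 level of 8 gene lists in each library, old replicates 1 to 3 at the left and young replicates 1 to 3 at the right. Young replicate 1 lies with or above the old libraries in the ribosomal RNA share and in the ribosomal protein and mitochondrially encoded lists.

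Genes often measured in ageing tissue were read whatever their values, and of those given here none but IGF1 and HTRA1B passed with all libraries. The cell cycle inhibitor gene CDKN1A (p21) had 88.4, 40.7 and 42.6 CPM in old livers and 18.8, 3.05 and 6.70 CPM in young livers. The ages did not overlap, the adults had 5.53, 5.39 and 5.33 CPM, and the log2 fold change was 2.60 ± 0.62 with and 3.55 ± 0.50 without young replicate 1 (edgeR, adjusted p = 0.095 and 0.00916). The stress-induced gene GADD45BA had 204.7, 49.3 and 144.4 CPM in old livers and 22, 2.41 and 12.1 CPM in young livers (log2 fold change 3.45 ± 0.80, edgeR adjusted p = 0.0898, and 0.0261 without young replicate 1). IGFBP1A, an IGF-binding protein that fasting and stress induce in fish liver, had 45.4, 60.3 and 23.4 CPM in old livers and 5.57, 0.155 and 0.386 CPM in young livers. Its log2 fold change was 4.45 ± 1.16 with young replicate 1 and 7.35 ± 0.82 without it (edgeR, adjusted p = 0.115 and 0.00647).

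The other genes of that set that are given here did not pass with all libraries, and only foxo1b, with 2 counts in all old libraries, passed without young replicate 1 (edgeR, adjusted p = 0.223 and 0.0343). FOXO3B, a transcription factor restrained by insulin signalling, had 98.2, 70.7 and 1.86 CPM in old livers and 14.9, 5.92 and 5.79 CPM in young livers, with old replicate 3 below all young libraries. The log2 fold changes were 1.54 for foxo1a, -0.89 for sirt1, -0.74 for SIRT6, -3.16 for the nuclear lamina gene lmnb1, -0.68 for HMGB2A, 0.42 for HMGB1A, -0.49 for the lysosomal galactosidase gene GLB1 and 0.55 for mtor (edgeR, adjusted p = 0.338 to 0.768). SIRT6, at a mean of 2.56 CPM in old livers, overlaps CACTIN on the opposite strand, which had 23.84 CPM there. Cdkn2b had a count in 1 old library and in no young library and was below the filter.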

How the data were processed

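Bulk liver RNA of the 3 ages was sequenced, 3 libraries each. Per the file headers, the deposited table gives for each of 25475 genes an estimated count of reads, made by the authors without scaling between libraries, and a TPM value scaled by the authors for length and depth. The TPM values were not used for any test. The submitters' processing notes name DRAGEN. Neither the genome build nor the annotation is named in the sources used here. Of the genes, 14461 took their symbol from the table and 879 from RefSeq (assembly NfurGRZ-RIMD1), by Entrez number. Estimated counts were rounded. They were tested with edgeR 4.0.16 (R 4.3.3) on 13971 genes left by filterByExpr, with TMM scaling, a robust quasi-likelihood fit of all 9 libraries with 1 mean per age, the contrast old minus young and Benjamini-Hochberg adjustment. An adjusted p under 0.05 passed. CPM are per TMM-scaled library, and SE is the log2 fold change over the square root of F.

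The genes and 52 gene lists (2161 symbols) were chosen with earlier results of these data known. Named are up to 15 genes per direction that passed, had no overlap and at least 5 CPM, up to 4 members of each list by p, up to 3 of each marker list by level, and the ageing genes, some of which are not reported here. Others that passed were named after their values were seen. Alternatives were RLE or library size scaling, other filters, DESeq2 1.42.0, limma-voom (limma 3.58.1), removal of rRNA and mitochondrial genes or rRNA share as covariate, a replicate block and leaving out libraries. On simulated counts the test recovered 29 of 100 genes changed 4-fold and 76 of 100 changed 16-fold, with 3 false calls. A gene that did not pass may therefore still differ between the ages.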

Additional observations from a re-analysis of the deposited data

How the results depend on the processing

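With all libraries 48 genes were higher and 30 lower in old livers, and no gene of the 78 changed direction in any setting. Library size scaling gave 27 higher, no filter 61 lower, DESeq2 451 and 605, limma-voom with quality weights 552 and 382, the ribosomal RNA covariate 420 and 298, and the old and young libraries alone 6 and 0 (557 and 638 at an unadjusted p under 0.05). The old libraries and young replicates 2 and 3 alone gave 46 and 44. Leaving out each library gave 2 to 627 higher and 0 to 694 lower. The labels do not say that replicate numbers pair the libraries. Correlations of deviations from the age means were 0.183, 0.022 and 0.209 for shared numbers and -0.207 to 0.099 for different numbers. Whether the numbers mark pairs was not tested. A replicate block gave 32 higher and 13 lower. Of the 78 genes, DESeq2 kept all, RLE scaling 75, limma-voom 54, library size scaling 50 and the block 39. The causes were not tested. The biological coefficient of variation was 0.614, with 3 libraries an age. Genes under about 0.0508 CPM in old or 0.0326 CPM in young livers are below 3 counts in all libraries of that age.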

Other observations

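No gene of the acute phase and iron list, of 29 tested, passed with all libraries, and 14 were positive and 15 negative with a median of -0.13. The transferrin receptor gene TFR1A, which brings iron into cells, had 349.7, 335.6 and 306.6 CPM in old livers and 60.3, 105.5 and 63.9 CPM in young livers, and the ferritin gene FTL, which stores it, had 2337, 1528 and 2102 CPM in old livers and 756.6, 776 and 529.6 CPM in young livers. Neither overlapped, and neither passed with all libraries (edgeR, adjusted p = 0.0707 and 0.0704, and 0.0416 and 0.0261 without young replicate 1). The fibrillar collagen genes COL1A2 and col1a1b had 5.89 to 20.1 CPM in old livers and 35.0 to 754.1 CPM in young livers, highest in young replicate 3 (log2 fold change -4.17 ± 0.96 and -4.11 ± 1.03, edgeR adjusted p = 0.0898 and 0.107, and 0.0263 and 0.0259 without young replicate 1). The autophagy receptor gene sqstm1 had 269.6, 183.5 and 117.5 CPM in old livers and 78.3, 32.5 and 41.5 CPM in young livers (edgeR, adjusted p = 0.095).

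Some genes that passed lay side by side. Within 50000 bases, a distance chosen after the values were seen, 9 of the 78 (11.5%) had a neighbour that also passed, in the same direction, while 204 of 13893 genes that did not pass (1.5%) lay that near to a gene that passed. On chromosome 19, tap2a and PSMB10 are 1911 bases apart. On chromosome 4, 2 genes without symbol lie beside casq1b, a calcium-binding protein of muscle, and 1 of them had 3831, 2780 and 1087 CPM in old livers and 108, 72.2 and 69.2 CPM in young livers (log2 fold change 4.95 ± 0.62, edgeR adjusted p = 0.0125). On chromosome 6, AASDHPPT is 2985 bases from a gene described as Myb/SANT-like, and on chromosome 14, MFSD9 is 31766 bases from si:dkey-4e7.3. Of the 78 genes, 16 overlap another gene, 12 of them on the opposite strand, and for 6 the partner on the opposite strand had at least 10% of the level of the gene.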
